A study of Mus musculus with 6 samples.

Results

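On mouse chromosome 15, 8009 accessible regions were found, which was 8.96% of the 89410 regions of all chromosomes. Peaks of the 6 libraries were joined into a region where they shared 1 bp or more, and every region on chromosome 15 was taken. The chromosome was chosen by measured values of these same lists: its share of the peaks, the standing of those peaks within their lists, and the difference of both between the groups were known to stand apart. Those values are therefore described and not tested. Chromosome 15 held 79.5 regions per Mb, and the next autosome in this order, chromosome 11, held 59.0.

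Chromatin accessibility was measured by ATAC-seq, in which the Tn5 transposase cuts DNA that is not tightly packed. The cells were an mouse osteoblasts made immortal in culture and carrying floxed Fam20c alleles, named OB Fam20c f/f and labelled as control, and OB Fam20c KO cells, labelled as Fam20c knockout, which were obtained from them with a lentivirus that carries Cre recombinase. Each group had 3 libraries, and both were grown in αMEM with fetal bovine serum. All 6 libraries go back to 1 line, no control virus is named for OB Fam20c f/f, and nothing says that the 3 libraries of a group came from separate cultures, so the spread between them may be technical.

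Accessible regions mark promoters, enhancers and other DNA that proteins can reach, and the same DNA is cut less where it is wrapped in nucleosomes. FAM20C is the Golgi kinase that phosphorylates many secreted proteins, and its gene lies on another chromosome. Chromosome 15 carries Sp7, the osterix transcription factor that osteoblasts need to form, Tnfrsf11b, which encodes the osteoclast inhibitor osteoprotegerin, Vdr, the vitamin D receptor, Myc, the Hoxc cluster and a large cluster of keratin genes.

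The bases before the start sites of 8 genes are shown because they are the DNA on which peaks at gene starts lay or did not lie. Each is the 250 bases before a start site, 5′ to 3′ on the gene's own strand, from RefSeq (GRCm38.p6). Capitals mark a match on either strand to 1 of 6 motifs. The GC box, which Sp1 and its relatives bind, was searched as GGGCGG. The CCAAT box, which the factor NF-Y binds, was searched under its own letters. The TATA box, which places the start of transcription in some promoters, was searched as TATAAA. The site of AP-1 factors such as Fos and Jun was searched as TGACTCA. The site of RUNX factors, which include the osteoblast regulator Runx2, was searched as AACCACA. The E-box of basic helix-loop-helix factors was searched as CAGCTG, which reads the same on both strands. None of these strings holds another, but GC boxes can overlap each other. The first 4 windows lay inside regions with a peak in all 6 libraries. They belong to Gdnf, a neurotrophic factor (chr15:7809798-7810047, plus strand), Acvr1b, an activin receptor (chr15:101173822-101174071, plus strand), Vdr (chr15:97908297-97908546, minus strand) and Osmr, the oncostatin M receptor (chr15:6874314-6874563, minus strand).
Gdnf: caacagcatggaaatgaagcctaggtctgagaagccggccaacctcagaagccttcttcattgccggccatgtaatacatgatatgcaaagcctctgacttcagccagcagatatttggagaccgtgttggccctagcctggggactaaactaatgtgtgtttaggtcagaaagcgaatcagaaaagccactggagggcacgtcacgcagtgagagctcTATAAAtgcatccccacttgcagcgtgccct
Acvr1b: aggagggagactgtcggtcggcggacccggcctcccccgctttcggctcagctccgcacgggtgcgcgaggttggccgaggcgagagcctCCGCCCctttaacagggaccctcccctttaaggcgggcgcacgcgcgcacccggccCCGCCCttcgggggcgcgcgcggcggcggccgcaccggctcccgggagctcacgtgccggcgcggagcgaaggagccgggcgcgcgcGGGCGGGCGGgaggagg
Vdr: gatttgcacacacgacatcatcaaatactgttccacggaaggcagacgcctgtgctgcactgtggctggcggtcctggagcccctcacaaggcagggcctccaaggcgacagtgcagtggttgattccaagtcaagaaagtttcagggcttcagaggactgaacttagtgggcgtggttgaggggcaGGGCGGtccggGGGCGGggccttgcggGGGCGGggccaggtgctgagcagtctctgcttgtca
Osmr: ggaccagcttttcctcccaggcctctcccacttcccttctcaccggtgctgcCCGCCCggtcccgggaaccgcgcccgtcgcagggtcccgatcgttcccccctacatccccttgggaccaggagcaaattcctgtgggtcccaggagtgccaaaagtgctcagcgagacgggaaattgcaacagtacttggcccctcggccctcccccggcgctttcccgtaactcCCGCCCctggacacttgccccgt

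The next 4 windows held no peak in any library. They belong to Krt5 and Krt8, keratins of epithelial cells (chr15:101712906-101713155 and chr15:102004343-102004592, both minus strand), Igfbp6, which binds insulin-like growth factors (chr15:102143936-102144185, plus strand), and 1 of 3 start sites of Prlr, the prolactin receptor (chr15:10176988-10177237, plus strand).
Krt5: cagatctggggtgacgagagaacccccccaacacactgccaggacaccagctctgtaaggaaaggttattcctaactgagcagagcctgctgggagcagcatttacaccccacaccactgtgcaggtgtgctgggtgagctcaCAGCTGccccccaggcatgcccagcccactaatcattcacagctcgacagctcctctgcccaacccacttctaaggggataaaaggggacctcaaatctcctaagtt
Krt8: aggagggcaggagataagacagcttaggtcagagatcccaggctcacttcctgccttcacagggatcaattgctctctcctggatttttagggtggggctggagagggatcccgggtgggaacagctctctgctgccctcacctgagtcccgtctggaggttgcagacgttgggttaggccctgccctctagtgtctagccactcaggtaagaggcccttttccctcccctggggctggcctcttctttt
Igfbp6: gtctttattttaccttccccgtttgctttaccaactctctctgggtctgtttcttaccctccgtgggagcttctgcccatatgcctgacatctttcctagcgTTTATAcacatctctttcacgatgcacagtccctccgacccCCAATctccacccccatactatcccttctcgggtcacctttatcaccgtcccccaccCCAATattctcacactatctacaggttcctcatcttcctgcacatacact
Prlr: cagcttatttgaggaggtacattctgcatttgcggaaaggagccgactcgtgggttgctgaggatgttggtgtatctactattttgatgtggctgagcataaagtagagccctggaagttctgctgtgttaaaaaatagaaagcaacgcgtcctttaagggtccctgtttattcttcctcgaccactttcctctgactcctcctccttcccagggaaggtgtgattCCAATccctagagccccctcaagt

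Of these 8 windows, Acvr1b was the richest in G and C, with 78.8% and 4 GC boxes, followed by Osmr with 66.0% and 2 and Vdr with 61.2% and 3. The Gdnf window had 50.8% G and C, no GC box and a TATA box. The windows without a peak ranged from 48.0% to 58.0% and had no GC box. The table of promoters covered 422 of the 774 coding genes of chromosome 15, in 936 windows of 300 bases (250 before and 50 after the start). Of the 387 windows on a region with a peak in all 6 libraries, 67.2% held a GC box, and the median G and C content was 62.7%. Of the 469 windows without a region, 11.1% held a GC box, and the median content was 49.0%. Over all autosomes 36.0% of promoter windows held a GC box, 37.3% a CCAAT box, 13.6% a TATA box, 5.26% an AP-1 site, 5.32% a RUNX site and 16.3% the E-box. The TATA box went the other way on chromosome 15, in 6.46% of the windows with a region in all 6 libraries and in 18.8% of those without one. AP-1 sites were found in 3.36% and 6.61% of these windows and RUNX sites in 3.88% and 7.46%. The same split stood on the other autosomes, where GC boxes were in 67.6% of the windows with such a region and 14.0% of those without.

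One library stood apart before any comparison. OB Fam20c KO replicate 3 had 32958 peaks in all, and the longest list 74797. On chromosome 15 the 3 OB Fam20c f/f libraries had peaks in 4224, 4589 and 5250 regions, OB Fam20c KO replicates 1 and 2 in 4911 and 4832, and replicate 3 in 2769. Results that rest on replicate 3 are given with and without it. In bulk samples such as these, fewer cells with an open site and less open DNA per cell cannot be told apart. Gene ends of this chromosome were also counted by gene list. This cannot check the osteoblast label, since the lists were written with earlier results known. A region lay over an end of 15 of 20 bone and growth plate genes, with a peak in all 6 libraries for 14. It did so for 1 of 14 epithelial keratins, 4 of 10 neuronal genes, 3 of 13 blood and immune genes and 1 of 7 liver genes. It also did so for 15 of 21 matrix, adhesion and cytoskeleton genes, 7 of 8 Wnt pathway genes and 10 of 14 transcription factors. In the Hoxc cluster it did so for 4 of 9. The share of the bone list was therefore not particular to bone genes. Of the bone genes, Sp7, Tnfrsf11b, Vdr, Osr2, Ccn3 and Ccn4 were among those with such a region in all 6 libraries. Prlr, Npr3, Rspo2, Cthrc1 and Igfbp6 had no region over an end. The keratin with a region over an end was Krt80, and Krt2 and Krt4 had no region within 3 kb of their spans. In single libraries a peak covered an end of 53.4% to 60.9% of all coding genes of chromosome 15.

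Chromosome 15 was the most densely covered autosome for its size and for its genes. Its regions spread over 100.8 Mb, 4.21% of the autosomal span, and made up 9.18% of the autosomal regions. Its coding genes were 3.77% of the autosomal total, at 7.68 per Mb, which was the 11th density of 19. There were 10.3 regions per coding gene, the highest ratio of the 19 autosomes, and 4.01 on the other autosomes together. The other autosomes together had 34.5 regions per Mb. The regions of chromosome 15 were also the narrowest, with a median width of 509 bp against 652 bp elsewhere. Among peaks with a −log10 q no lower than 5 this was not so in the f/f libraries, where the median peak width was 604, 725 and 707.5 bp on chromosome 15 and 599, 713 and 700 bp elsewhere.

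The chromosome's part of each library's autosomal peaks was higher in the knockout cells. It was 7.04%, 7.61% and 7.28% in OB Fam20c f/f replicates 1 to 3 (95% exact binomial intervals, which cover counting error only, 6.84 to 7.25, 7.41 to 7.83 and 7.09 to 7.47). It was 8.13%, 7.84% and 8.87% in OB Fam20c KO replicates 1 to 3 (7.92 to 8.35, 7.63 to 8.06 and 8.56 to 9.19). The 3 knockout values lay above the 3 f/f values. The means were 7.31% ± 0.287 (SD, n = 3) and 8.28% ± 0.530 (SD, n = 3), a difference of 0.969 percentage points, which was the largest rise of any autosome. The difference was 0.675 points without OB Fam20c KO replicate 3, and the groups still did not overlap. The knockout libraries lay above on 6 of 19 autosomes (3, 5, 7, 9, 10 and 15) and below on 3 (4, 13 and 16). Each share is part of a whole, so a fall on one chromosome raises the others. With chromosomes 4, 13 and 16 left out of the whole, the difference was 0.912 points.

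**Figure D1:**
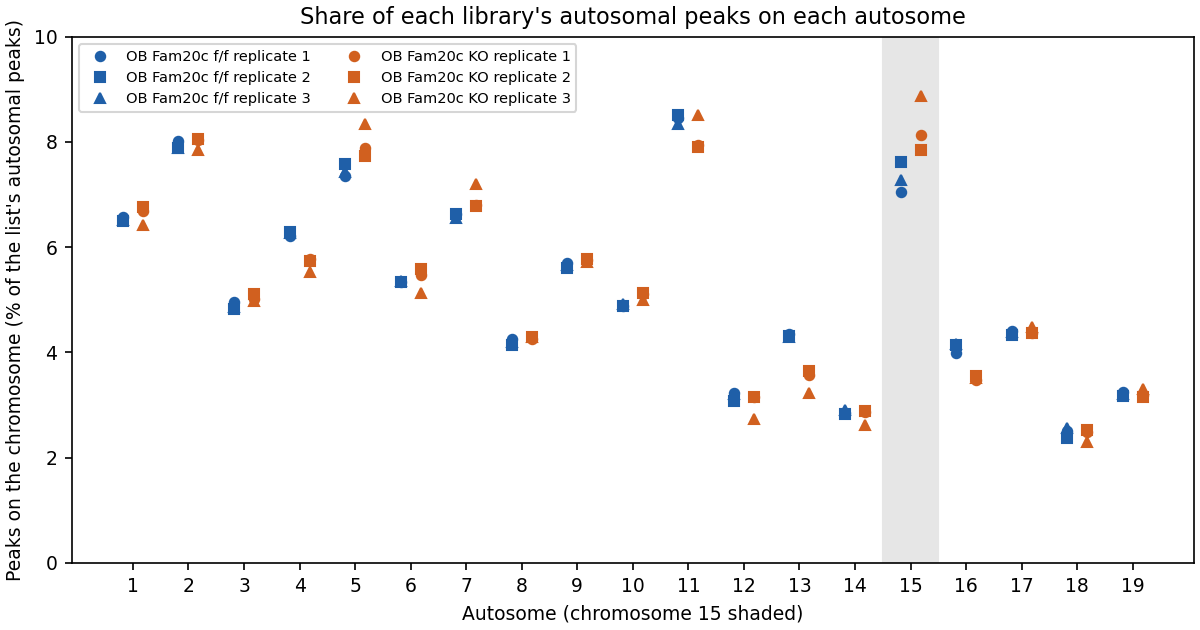
Each point is 1 library, and the vertical axis is the percentage of its autosomal peaks that lies on the autosome given on the horizontal axis, with OB Fam20c f/f in blue and OB Fam20c KO in orange. On chromosome 15 the knockout points, 7.84% to 8.87%, lie above the f/f points, 7.04% to 7.61%.

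The difference between the groups was smaller among stronger and among shared peaks. With a −log10 q of at least 5 required, chromosome 15 held 6.56%, 6.69% and 6.78% of the f/f libraries' autosomal peaks and 7.01%, 7.02% and 7.14% of the knockout libraries', a difference of 0.380 points. Among the peaks of regions that all 6 libraries shared, it held 7.15% to 7.19% in the f/f libraries and 7.17% to 7.26% in the knockout libraries, a difference of 0.0410 points. These last ranges overlapped.

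Peaks were then ranked within each library by −log10 q, the strength of the evidence for a peak, and by fold, the height of the peak's summit over its local background. The standing of a peak is its percentile in the library's autosomal peaks, and 100 is the highest. By −log10 q the median standing on chromosome 15 was 48.3, 42.2 and 44.5 in the f/f libraries and 38.9, 41.7 and 36.8 in the knockout libraries, and on the other autosomes it was 50.1 to 50.8. It was the lowest of the 19 autosomes in 5 libraries and 16th in OB Fam20c f/f replicate 1. This direction turned when weak peaks were left out. The mean difference between chromosome 15 and the other autosomes was -8.43 percentiles over all peaks, 1.16 with a −log10 q of at least 5, 3.69 with equally long lists and 3.86 among peaks shared by all libraries. By fold the medians were 39.8, 34.0 and 38.2 in the f/f libraries and 31.6, 33.4 and 23.7 in the knockout libraries, and 50.5 to 52.0 elsewhere. The fold standing of chromosome 15 was the lowest of the 19 in every library, and the next lowest was chromosome 16 in the f/f libraries (44.1 to 47.5) and chromosome 5 in the knockout libraries (42.8 to 45.8).

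The knockout libraries stood lower on both scales. The mean of the medians was 45.0 ± 3.09 (SD, n = 3) in OB Fam20c f/f and 39.1 ± 2.46 (SD, n = 3) in OB Fam20c KO by −log10 q, a difference of -5.85. By fold it was 37.3 ± 3.01 (SD, n = 3) and 29.6 ± 5.12 (SD, n = 3), a difference of -7.77. Both differences were the lowest of the 19 autosomes, and the groups did not overlap in either. Without OB Fam20c KO replicate 3 they were -4.67 and -4.86, again with no overlap. With a −log10 q of at least 5 the groups overlapped by −log10 q, at 52.8, 51.8 and 49.1 in the f/f libraries and 50.2, 49.3 and 53.3 in the knockout libraries, and the difference was -0.304.

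**Figure D2:**
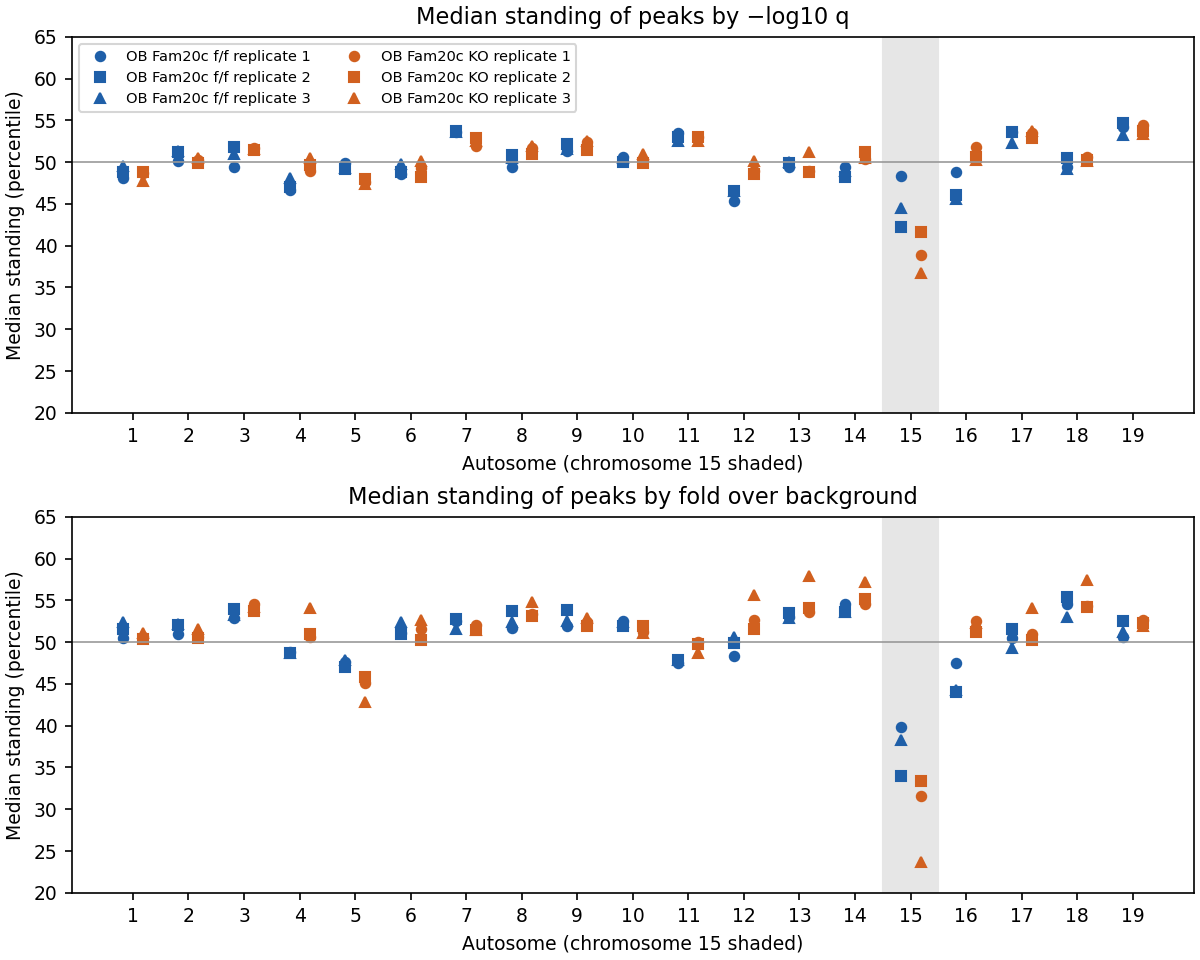
Median standing of each library's peaks on each autosome, in percentiles of the library's autosomal peaks, by −log10 q above and by fold below, with 1 point per library and a grey line at the 50th percentile. Chromosome 15 is lowest by fold in all 6 libraries, from 23.7 to 39.8.

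These medians came from unequal shares along the ranks. By −log10 q, chromosome 15 was over-represented both in the weakest and in the strongest decile of every library. It held 11.4%, 15.5% and 11.7% of the weakest decile in the f/f libraries and 18.6%, 16.3% and 21.5% in the knockout libraries. It held 10.7%, 10.3% and 9.68% of the strongest decile in the f/f libraries and 10.4%, 10.1% and 14.2% in the knockout libraries. In the deciles between, from the third to the ninth, it held 4.88% to 7.72%. By fold there was no second rise. It held 12.8% to 28.7% of the lowest decile of the libraries and 4.07% to 4.98% of the highest.

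**Figure D3:**
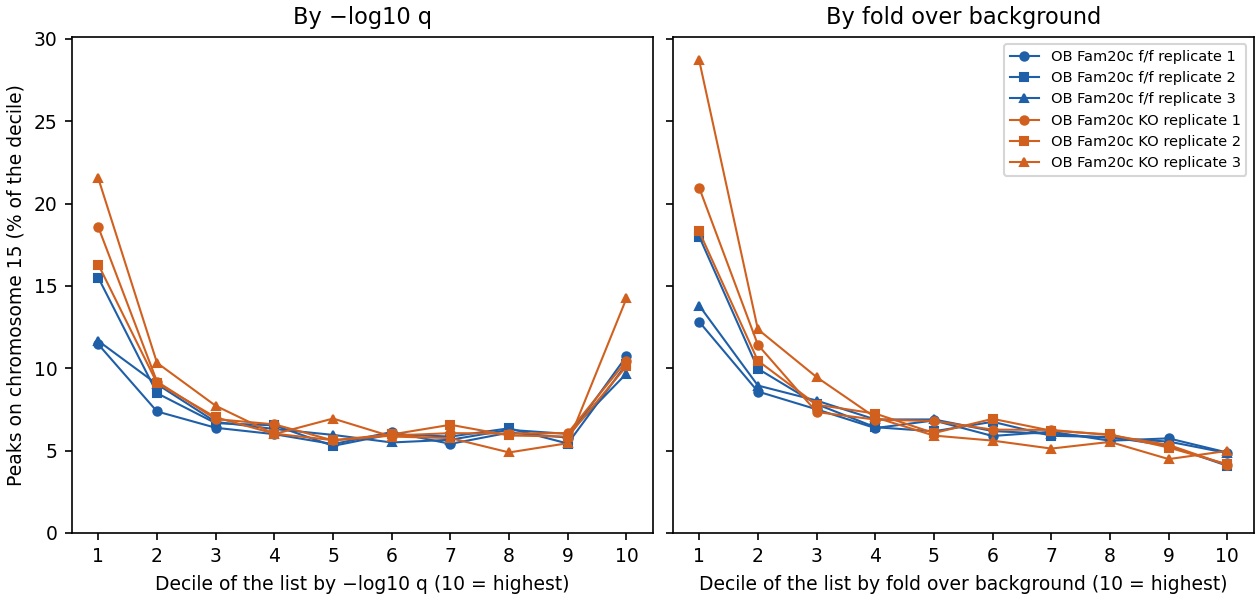
Percentage of the peaks in each decile of a library that lies on chromosome 15, by −log10 q on the left and by fold on the right, with decile 10 the highest and 1 line per library. The left panel rises at both ends and the right panel ends at 4.07% to 4.98% in the highest decile.

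Peaks of chromosome 15 had less fold than peaks elsewhere with the same −log10 q. When the peaks were split into 20 classes by −log10 q, the mean difference of their fold standing from that of the other autosomes was -6.53, -7.13 and -5.42 percentiles in the f/f libraries and -7.01, -6.79 and -10.9 in the knockout libraries. It was below in all 20 classes of all 6 libraries. The autosome with the next lowest mean was chromosome 11 in 5 libraries, at -4.18 to -3.01 percentiles, and chromosome 5 in OB Fam20c KO replicate 3, at -4.34.

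The deficit in fold was unequal along the chromosome. In 27 of 50 steps of 2 Mb that had peaks in every library (54.0%), it was present in all 6 libraries, and on the other autosomes in 16.2% of 1081 steps, with the highest share, 43.1%, on chromosome 11. The steps from 76 to 78 Mb and from 78 to 80 Mb stood lowest, at -17.2 and -17.0 percentiles (mean of the 6 libraries), and the step from 46 to 48 Mb stood highest at 4.59. The 10 steps with 20 or more coding genes had a median of -11.7 and ranged from -17.2 to -8.55. The other 40 had a median of -1.57. The 327 gene-rich steps of the other autosomes had a median of -0.650 and ranged from -16.8 to 16.2. Over the steps of chromosome 15 the value fell with the number of coding genes (Pearson's r = -0.796, Spearman's rho = -0.771, 50 steps), and over those of the other autosomes the coefficients were -0.458 and -0.529. The steps share the libraries and lie side by side, so these coefficients are descriptions.

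The shared peaks showed the same split between the 2 measures. When only peaks of regions found in all 6 libraries were ranked, among themselves, the median standing of chromosome 15 by −log10 q was 55.2, 52.6 and 55.2 in the f/f libraries and 54.1, 53.4 and 51.1 in the knockout libraries, above the 49.7 to 49.9 of the other autosomes. By fold it stayed the lowest of the 19 autosomes in every library, at 40.1, 36.2 and 39.8 and at 36.5, 36.6 and 32.9. Among these shared peaks chromosome 15 was therefore low by fold and not by −log10 q.

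A smaller share of the regions of chromosome 15 was common to all libraries, and a larger share was found in a single one. A peak in all 6 libraries was found in 2084 regions of chromosome 15, which was 26.0% (95% exact binomial interval 25.1 to 27.0) against 34.1% on the other autosomes, the lowest share of the 19. A peak in 1 library only was found in 2795 regions, 34.9% against 18.3%, the highest share of the 19, and the highest other autosome reached 25.3%. These single-library regions were narrow, with a median width of 259 bp against 1105 bp for regions in all 6. They were also weak, with median standings by −log10 q of 3.47 to 5.87. Single-library peaks elsewhere were much alike. Their median widths in the libraries were 230 to 291 bp on the other autosomes and 231 to 288 bp on chromosome 15. On the other autosomes their median standings were 5.07 to 9.60.

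**Figure D4:**
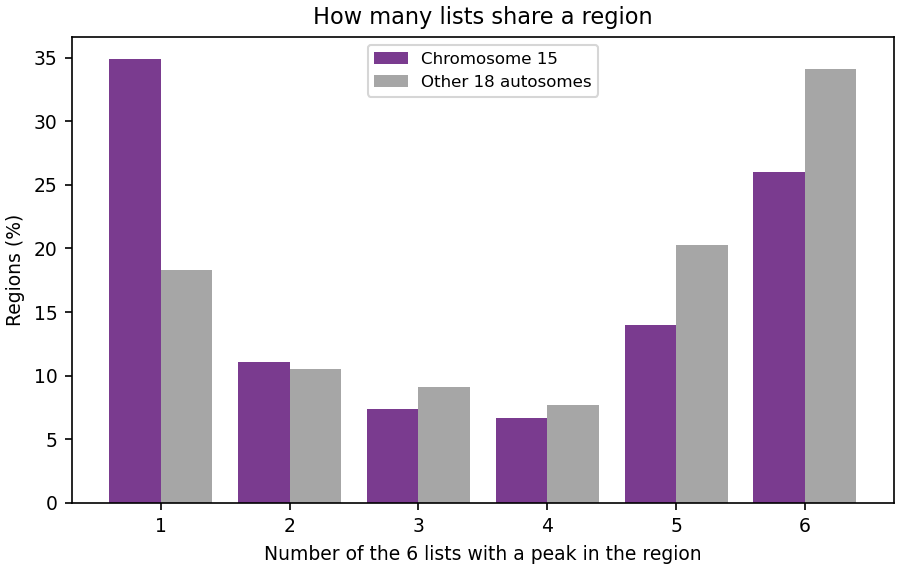
Percentage of regions with a peak in 1 to 6 of the libraries, for chromosome 15 in purple and the other 18 autosomes in grey. Chromosome 15 has 34.9% of its regions in 1 library and 26.0% in all 6, and the other autosomes have 18.3% and 34.1%.

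OB Fam20c KO replicate 3 held the most unusual part of these. It alone had a peak in 512 regions of chromosome 15, and these were 53.5% of all autosomal regions found in that library alone. They were 18% of its chromosome 15 peaks, and 1.52% of its peaks elsewhere had no partner. Its regions on chromosome 15 were found again in another library in 77.0% to 79.1% of cases, and elsewhere in 96.2% to 97.8%. The 512 regions lay far from genes, with 46.9% over 100 kb from an end of a coding gene. This share was 26.8% for all single-library regions of chromosome 15. For the regions found in OB Fam20c KO replicate 3 alone on the other autosomes it was 19.8%. Without this library, 42.2% of the regions of chromosome 15 had a peak in all 5 others, against 54.2% elsewhere, and 31.1% against 18% had a peak in 1 only.

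Few regions of chromosome 15 were specific to a group. A region was f/f-only when all 3 f/f libraries and no knockout library had a peak in it, and 164 were (2.05%, interval 1.75 to 2.38), the lowest share of the 19 autosomes. Over all regions 3.75% were f/f-only. Without OB Fam20c KO replicate 3 there were 169. A region was KO-only in the opposite case, and 16 were (0.200%), where 0.179% of all regions were. That count rests on replicate 3: 230 regions (2.87%) were gained in OB Fam20c KO replicates 1 and 2, meaning that both had a peak there while the 3 f/f libraries had none, against 2.9% of all regions. Both knockout shares were close to those of all regions. The order of the groups depended on list length. With equally long lists, 58 of 3353 regions of chromosome 15 were f/f-only and 81 were KO-only. The shares over all regions were not taken in that setting.

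The strongest regions in all 6 libraries stood near the top of every list. The first by mean standing lay at chr15:8805967-8807246 in the long noncoding RNA gene Gm31340, with standings by −log10 q of 99.9 to 100 and folds of 19.4, 15.6 and 16.9 in the f/f libraries and 20.5, 19.5 and 13.4 in the knockout libraries. The second lay over an end of Derl1 (chr15:57891804-57892939), which acts in the removal of misfolded proteins from the endoplasmic reticulum. The third lay over an end of AW549877 (chr15:3995288-3996460). In both the standing was 99.9 to 100 in every library.

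The strongest f/f-only regions lay inside gene spans. One was in Pdzd2 (chr15:12380383-12381099), a gene for a protein with PDZ domains, with standings by −log10 q of 64.0, 63.5 and 72.3 in the f/f libraries. One was in Csmd3 (chr15:47858721-47859453), a gene of neurons, with 58.8, 65.7 and 64.5. One was in AW549877 (chr15:3987907-3988420), 6128 bp from the nearest end of a coding gene, with 57.7, 60.9 and 62.9.

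The strongest KO-only region lay in the noncoding gene G930009F23Rik (chr15:38452668-38453230) and stood at 75.9, 75.8 and 57.7 by −log10 q, but only at 21.8, 22.2 and 11.7 by fold. The next lay outside genes, 19811 bp from the pseudogene Rpl31-ps8 (chr15:90784551-90785182, standings 62.7, 66.2 and 27.8) and 26741 bp from the pseudogene Gm10362 (chr15:73455665-73456437, standings 50.1, 65.8 and 14.9). Of the 16 KO-only regions, 1 lay in the span of a listed gene, Trps1 (chr15:50747104-50747360), which encodes a repressor of the growth plate, 92475 bp from the nearest end of a coding gene, with standings of 37.0, 40.4 and 16.6.

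The widest region, 4291 bp, covered an end of Gdnf (chr15:7809492-7813782) and stood at 84.0 to 89.8 by −log10 q but at 35.3 to 42.8 by fold. The next, 3928 bp, covered an end of Myc, the growth-promoting transcription factor (chr15:61984312-61988239). It stood at 81.9, 86.4 and 83.5 by −log10 q in the f/f libraries and at 87.6, 90.1 and 86.5 in the knockout libraries. The groups did not overlap but nearly met, at 86.42 in OB Fam20c f/f replicate 2 and 86.45 in OB Fam20c KO replicate 3. By fold they overlapped, at 17.8, 29.7 and 18.2 against 27.9, 30.9 and 35.3. The third, 3839 bp, lay inside Acvr1b (chr15:101195119-101198957), 16646 bp from the nearest end of a coding gene, and stood at 76.6 to 86.2 in 5 libraries and at 46.9 in OB Fam20c KO replicate 3.

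Along the chromosome, regions followed the genes. Each of 51 steps of 2 Mb held 22 to 338 regions, with a median of 148. The densest were the steps from 78 to 80 Mb (338 regions, 59 coding genes), from 76 to 78 Mb (320 regions, 70 coding genes) and from 100 to 102 Mb (312 regions, 53 coding genes). The step from 76 to 78 Mb holds Plec, which encodes the linker protein plectin, and Myh9, a nonmuscle myosin, and the step from 78 to 80 Mb holds Lgals1. The emptiest were the steps from 16 to 18 Mb (22 regions), from 18 to 20 Mb (24) and from 14 to 16 Mb (32), where there was 1 coding gene, 1 and none, and the first 2 hold the cadherin genes Cdh9 and Cdh10. Regions and coding genes per step had Pearson's r = 0.825 and Spearman's rho = 0.911 over 51 steps. The profiles of the libraries over the steps had Pearson's r of 0.992 to 0.995 among the 5 libraries other than OB Fam20c KO replicate 3, and of 0.945 to 0.960 with it.

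The knockout libraries had the larger share of their peaks in nearly all steps. The mean difference was above 0 in 50 of 51 steps, and in 43 without OB Fam20c KO replicate 3. In 15 steps (29.4%) all 3 knockout shares lay above all 3 f/f shares, against 12.5% of the autosomal steps, and in none did they lie below, against 15.4%. The direction depended on the weaker and unshared peaks: with a −log10 q of at least 5 the knockout shares lay above in 8 steps and below in 2, and among peaks shared by all libraries above in 1 and below in 5. With chromosomes 4, 13 and 16 left out of the whole, they lay above in 10 steps and below in none. The 15 steps began at 22, 24, 26, 28, 30, 38, 40, 44, 58, 74, 76, 78, 80, 82 and 102 Mb. At 82 Mb the groups nearly met, at 24.43 and 24.48 per 10 000 autosomal peaks, and at 102 Mb, at 30.78 and 30.84. Much of the rise in the steps was the higher share of the whole chromosome. When peaks were divided by each library's own chromosome 15 peaks, the knockout libraries lay above in 5 steps and below in 2.

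Over all libraries the largest rises were in the steps from 76 to 78 Mb, 78 to 80 Mb and 102 to 104 Mb. Without OB Fam20c KO replicate 3 the step from 26 to 28 Mb came first, at 4.02. In the step from 76 to 78 Mb, 35.3, 33.9 and 33.9 of every 10 000 autosomal peaks of the f/f libraries lay in the step, and 38.1, 38.1 and 51.6 of those of the knockout libraries. The difference of the means was 8.23, and 3.72 without OB Fam20c KO replicate 3. In the step from 78 to 80 Mb the values were 37.2, 37.5 and 37.1 against 40.6, 40.5 and 46.4, a difference of 5.23, and 3.31 without that library. In the step from 102 to 104 Mb, which holds the Hoxc cluster, they were 29.7, 30.8 and 29.7 against 31.7, 30.8 and 42.9, and the difference was 5.07 with OB Fam20c KO replicate 3 and 1.18 without it. The smallest were at 68 to 70 Mb (-0.0224), 70 to 72 Mb (0.111) and 6 to 8 Mb (0.113), and in those the groups overlapped.

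In the gene-poor steps OB Fam20c KO replicate 3 differed from all others. The 10 steps with 2 coding genes or fewer held 3.42% to 3.91% of the chromosome 15 peaks of the other 5 libraries and 7.02% of its own. On the other autosomes steps of this kind held 1.34% to 1.76% in the 6 libraries. The longest stretch of chromosome 15 without a region was 270354 bp (chr15:17289216-17559569), with the pseudogene Gm52225 in it. In single libraries the longest stretch was 1.40 to 2.32 Mb in 5 of them and 0.716 Mb in OB Fam20c KO replicate 3.

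Away from genes there were more regions than elsewhere. Distances were taken to either end of a gene span, since the spans carry no strand. Of the 8009 regions, 1053 (13.1%) had their midpoint within 1 kb of an end of a gene, against 20.4% on the other autosomes, the lowest share of the 19. For coding genes alone the shares were 8.52% and 15.3%. At the other extreme, 19.1% lay over 100 kb from an end of a coding gene, against 11.8% elsewhere and 19.9% on the highest other autosome, and the median distance was 23.4 kb against 14.3 kb. The regions in all 6 libraries lay nearer, at a median of 11.5 kb, and those in 1 library lay farther, at 37.2 kb.

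At the gene ends themselves chromosome 15 was high. A peak covered an end of 58.1%, 58.7% and 60.9% of the 774 coding genes in the f/f libraries and of 59.7%, 58.9% and 53.4% in the knockout libraries. The other autosomes had 45.1% to 51.4%, and chromosome 15 was the first of 19 in every library. The peaks at these ends were strong by −log10 q, with a median standing of 97.4 to 98.8 against 79.8 to 89.5 elsewhere. By fold they stood below the others, at 73.1 to 79.4 against 80.5 to 84.3. Of all peaks at gene ends 4.55% to 4.62% lay on chromosome 15, and of all other peaks 7.47% to 8.16% in the f/f libraries and 8.43% to 10.4% in the knockout libraries. The groups overlapped in the first share and not in the second.

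Sp7 was the gene end that stood lowest in the knockout libraries relative to the f/f libraries. For 443 coding genes of chromosome 15 a region with a peak in all 6 libraries lay over an end, and the standing of its highest peak by −log10 q was compared. At Sp7 it was 26.2, 41.0 and 50.9 in the f/f libraries and 7.66, 4.63 and 6.69 in the knockout libraries. The means were 39.4 ± 12.5 (SD, n = 3) and 6.33 ± 1.54 (SD, n = 3), a difference of -33.0, the lowest of the 443. At the other extreme was Endou, a gene for a placental endoribonuclease, at 31.3, 45.7 and 60.3 against 78.5, 88.8 and 68.7, a difference of 32.9. Both genes were singled out after these values were seen, as the extremes of 443 genes.

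All 3 knockout standings lay above the f/f standings at 46 of the 443 ends (10.4%), against 6.33% over all autosomes, and below at 75 (16.9%), against 21.9%. Without OB Fam20c KO replicate 3, whose shorter list ranks fewer peaks, they lay above at 160 (36.1%, and 25.7% on the other autosomes) and below at 75 (16.9%, and 22.4%).

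The gene lists were written with earlier results of these data known, so the shares of their genes are descriptions only. Among the 48 listed genes with such an end, the knockout libraries stood higher at 10 (20.8%) and lower at 4 (8.33%), where the shares of the 443 were 10.4% and 16.9%. Without OB Fam20c KO replicate 3 they stood higher at 23 (47.9%) and lower at 4, where the shares of the 443 were 36.1% and 16.9%. Those that stood higher with all 3 knockout libraries were Ghr, the growth hormone receptor, Ank, a transporter that restrains mineral formation, Ext1, an enzyme of heparan sulfate synthesis, Rarg, a retinoic acid receptor, Nr4a1, an orphan nuclear receptor, Prickle1, a planar polarity gene, Trio, Ptk2, which encodes focal adhesion kinase, Myh9 and Myc. At Rarg the standings were 88.6, 88.0 and 87.9 in the f/f libraries and 98.4, 98.4 and 97.6 in the knockout libraries. At Ank they were 89.0, 86.3 and 90.5 against 98.1, 98.8 and 96.1. At Ghr they were 92.1, 91.0 and 92.1 against 99.5, 99.6 and 99.0. The spread within a group was small at these 3 genes beside the difference between the groups. At Myh9 and Myc the groups nearly met: the nearest f/f and knockout values were 99.83 and 99.85 at Myh9 and 86.42 and 86.45 at Myc.

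Those that stood lower were Sp7, Wnt1, Krt80 and Ccn4, which encodes a matricellular protein of the Wnt pathway. Wnt1, a Wnt ligand, had 95.3, 97.3 and 97.1 in the f/f libraries and 84.8, 87.8 and 79.9 in the knockout libraries. Ccn4 had 96.6, 97.3 and 97.7 against 92.7, 92.3 and 87.8. Neither gene's groups overlapped. These are ranks within a library, so they do not say by how much the cut DNA changed, and no count of reads was used here.

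The bone and growth plate genes held 187 regions within 3 kb of their spans, summed over genes, of which 55 had a peak in all 6 libraries, 3 were f/f-only and 1 was KO-only. The f/f-only share, 1.60%, was below the 3.75% of all regions and near the 2.05% of chromosome 15, and 29.4% were in all 6 libraries, against 26.0% on the chromosome. The f/f-only regions lay at Ghr (chr15:3463549-3464088), Lifr, the receptor of leukemia inhibitory factor (chr15:7200316-7200849), and Npr3, a natriuretic peptide receptor (chr15:11891077-11891651). All 3 were weak, with mean standings of 15.1, 27.9 and 36.4. Besides the KO-only region, 4 were gained in OB Fam20c KO replicates 1 and 2. They lay at Prlr, at Pdgfb, a platelet-derived growth factor, and at Ext1 in 2 regions. Over all regions 2.9% were gained, KO-only ones included. For their length, Igfbp6 (35.3 regions per 100 kb), Pdgfb (23.0) and Osr2 (22.7), a skeletal transcription factor, had the most regions of this list. All 20 genes had at least 1.

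Matrix, adhesion and cytoskeleton genes held 339 regions, 117 of them (34.5%) in all 6 libraries and 3 (0.885%) f/f-only. Plec (28.6 per 100 kb), Itgb7, an integrin (25.6), and Myh9 (24.0) had the most for their length. The 3 f/f-only regions lay at Dab2, an endocytic adaptor, Col14a1, a collagen, and inside Itgb7, 389 bp from the nearest end of a coding gene and within 3 kb of Rarg (chr15:102232878-102233155, standings 51.1, 42.3 and 42.5). Of the 339 regions, 9 were gained in OB Fam20c KO replicates 1 and 2, where 2.9% of all regions were. They lay at Dab2, Adamts12, Myo10, Trio and Myh9. Col2a1, the cartilage collagen, had a region over an end in 5 libraries, at standings of 30.5 to 52.1, and none in OB Fam20c KO replicate 3.

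The Hoxc cluster, transcription factors of body position, had a region within 3 kb of 9 of 9 genes and no group-specific region among 19, too few to read against the 2.05% of f/f-only regions on the chromosome. Hoxc5 (31.8 per 100 kb), Hoxc6 (25.4) and Hoxc8 (20.5) had the most regions for their length. Hoxc13 stood at 98.5 to 99.5 by −log10 q and Hoxc10 at 73.4 to 93.3 in the 6 libraries, with the lowest value of both in OB Fam20c KO replicate 3.

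Of the 8 Wnt pathway genes, 7 had a region over an end, and none of their 67 regions was f/f-only or KO-only, beside 2.05% and 0.200% on the chromosome. Wnt7b (22.9 per 100 kb), Wnt10b (22.2) and Wnt1 (20.1) had the most regions for their length. Of the 67 regions, 2 were gained in OB Fam20c KO replicates 1 and 2, where 2.9% of all regions were. They lay 1819 bp from an end of Wnt1 (chr15:98787879-98788198, standings 49.6 and 55.7) and at Celsr1, a polarity cadherin (chr15:85991986-85992381, 23.2 and 31.3). The region over the end of Wnt1 itself stood lower in the knockout libraries, as given above. Of the transcription factors, Nr4a1 (22.3 per 100 kb), Maff (21.7) and Rarg (21.0) had the most regions. Of the 100 regions of the transcription factors, 2 were gained in OB Fam20c KO replicates 1 and 2, beside the same 2.9%. They lay in Hdac7 (44.2 and 38.9) and Sp1 (15.7 and 6.20).

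Genes of other cell types also held regions. The 14 keratins held 26 regions, 4 of them in all 6 libraries and none specific to a group. Krt5 (25.3 per 100 kb), Krt8 (22.0) and Krt7 (18.7) had the most. The 10 neuronal genes held 148 regions, 17 (11.5%) in all 6 libraries, and 6 f/f-only ones (4.05%, near the 3.75% of all regions) at Cdh12, Cdh18, Csmd3 and Kcnq3. Gpr20 (20 per 100 kb), Cacng2 (12.7) and Cacna1i (12.0) had the most, and a region over an end of Cacng2, a subunit of neuronal receptor channels, stood at 96.9 to 99.8. The 13 blood and immune genes held 70 regions, 23 (32.9%) in all 6 libraries, and Ly6a (32.8), Ly6c1 (27.5) and Ly6d (26.6) had the most for their length. Of these 70 regions, 4 were gained in OB Fam20c KO replicates 1 and 2, too few to read against the 2.9% of all regions. They lay at Il7r, Ncf4, Csf2rb2 and Rac2, at standings of 1.90 to 19.4. The 7 liver genes held 19 regions, 4 in all 6 libraries, and Cyp2d10 (19.2), Cyp2d22 (19.1) and C9 (10.1) had the most. Of 35 miRNA hairpins on chromosome 15, 5 overlapped a region, and for 4 of these it had a peak in all 6 libraries.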

How the data were processed

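Peak lists from ATAC-seq were analysed, 3 from OB Fam20c f/f cells and 3 from OB Fam20c KO cells, grouped by the sample titles. Per the methods and labels, the authors trimmed the reads, aligned them to mm10 with BWA and called peaks in each library by MACS2 (version 2.1.2, q-value threshold 0.05). For each peak the authors deposited a score for browsers, the fold (a ratio) of the summit over local background, and the −log10 of the p-value and q-value. The lists hold no counts, so read depth was not used here, and group spread is that of 3 values.

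Peaks were merged where they shared 1 bp or more, and standings were percentile ranks within a list's autosomal peaks. Steps of 2 Mb were counted by summit for peaks and by midpoint for regions and genes. Gene spans came from RefSeq (GRCm38.p6, whose chromosome coordinates are those of mm10) without strand, so either end was used, and 8 spans placed before 3 Mb of chromosome 15 were left out as scaffold coordinates. The lists hold 111 genes of chromosome 15, after 1 placed elsewhere was dropped. Python 3.11.15 with numpy 2.4.6, pandas 2.3.3 and scipy 1.17.1 was used, with figures by matplotlib 3.10.9, and merging, grouping and ranking were tested on simulated lists.

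The members and the gene lists were chosen with earlier results of these data known, so no test was made. Regions were named by standing, width and group, steps by their number of regions and group difference, and genes by their lists: those with group-specific regions, the 3 with the most regions per span extended by 3 kb, and those with none. The alternatives are stricter peaks, equal list lengths, other merging, other step sizes and gene distances, and each library left out.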

Additional observations from a re-analysis of the deposited data

How the results depend on the processing

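No paired analysis was made, because nothing links an f/f library to a knockout library, and no test was run. Of 131 values under the alternatives, 90 moved by less than the spread between replicates or stayed within 1.5 times the count, 38 moved further and 3 changed sign. With peaks of −log10 q of at least 5, 34.1% of the regions had a peak in all 6 libraries, 5 were KO-only, 15.9% had a gene end no farther than 1 kb, the group difference was 0.380 points in the share and -0.304 in the standing by −log10 q, and chromosome 15 minus the other autosomes was 1.16 in that standing (reversed from -8.43) and -2 bp in width. With equally long lists, 48.8% were in all 6, 58 were f/f-only, 81 were KO-only and 19.4% lay within 1 kb, and chromosome 15 minus the others was 3.69 (reversed) and -23.7 bp. With windows of 1 fixed width around the summits, 24.6% were in all 6 and 29 were KO-only. With only peaks common to all 6 libraries ranked, the group differences were 0.0410 points, -1.47 by −log10 q and -3.35 by fold, chromosome 15 minus the others was 3.86 by −log10 q (reversed), and 6 steps did not overlap, 1 with the knockout libraries above and 5 with them below, where the reported 15 were all above. With at least 2 of 3 libraries required, 444 were f/f-only and 253 KO-only. Within 1 kb of coding genes lay 8.52%, and within 5 kb of any gene 33.3%. Steps without overlap numbered 29 at 1 Mb (28 above, 1 below) and 7 (5 above, 2 below) with the chromosome's own peaks as the whole, an alternative added after seeing the data. The causes were not tested.

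With each library left out in turn, 26.8% to 42.2% were in all remaining libraries, 169 to 307 were f/f-only, 19 to 230 KO-only, and 15 to 27 steps did not overlap. The highest KO-only count (230) and all-library share (42.2%) came without OB Fam20c KO replicate 3. The lower standing by fold on chromosome 15 kept its sign in 12 of 12 alternatives, and that by −log10 q in 9 of 12, of which 2 change the merging alone and cannot move ranks within a list. The lists give no read depth, so a region without a peak cannot be called closed.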
